A study of Mus musculus with 8 samples.

Results

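The 43 genes described here make fatty acids, lengthen and desaturate them, and build triglycerides and phospholipids from them. They were listed by name, by a rule that uses no measured value, though earlier results of these data were known. The transcripts of each gene were summed from the liver transcript table, which gave 43 of the 35975 genes that the table holds. By role, 5 are transcriptional regulators, 11 serve fatty acid synthesis, 8 desaturate or elongate fatty acids, 3 serve fatty acid uptake and activation, 12 serve triglyceride synthesis and 4 serve phospholipid synthesis. The livers came from C57BL/6 mice, and the study's methods give the C57BL/6J strain and an age of 8 to 10 weeks. The labels give no sex, and the methods name both sexes for the study as a whole. For 2 weeks a pump had infused either normal saline (4 mice) or 4-hydroxyphenylacetic acid (4-HPAA, 4 mice) continuously into the portal vein. The pump solution held 55 mM 4-HPAA, a phenolic acid that gut microbes make from polyphenols and amino acids. All 8 mice therefore shared the surgery, the catheter and the saline vehicle, and no engineered allele is named for either group.

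The liver turns surplus carbohydrate into fat. Citrate leaves the mitochondrion and is cleaved to acetyl-CoA, acetyl-CoA carboxylase makes malonyl-CoA, fatty acid synthase assembles palmitate, and elongases and desaturases shape the chain before it is esterified to glycerol. Insulin acts on this route largely through SREBP-1c, encoded by Srebf1, and glucose through ChREBP, encoded by Mlxipl, while phosphatidylcholine and phosphatidylethanolamine are made by the CDP-choline and CDP-ethanolamine branches.

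Each library held 29559978 to 30673398 estimated counts. Hepatocyte markers summed to 94013 to 125013 CPM in the 8 livers (CPM being a gene's count scaled to a fixed library total), and the Y-linked genes Ddx3y (72.1 to 89.5 CPM) and Eif2s3y (43.7 to 52.0 CPM) were expressed in all 8 libraries, as in livers of male mice. 4-HPAA liver 4 stood apart, with the highest value in 18.7% and the lowest in 20.6% of the 12883 genes tested, and haemoglobin transcripts were most abundant in normal saline liver 2 (2437 CPM) and, among 4-HPAA livers, in liver 4 (637 CPM), against 66.2 to 331 CPM in the other 6. In bulk tissue, fewer cells of a type and less RNA per cell cannot be told apart.

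Of the 43 genes, 41 reached 10 counts in each of the 8 libraries, the minimum set for the test. None of them passed an adjusted p of 0.05 in edgeR's quasi-likelihood test of 4-HPAA against normal saline, where 0.0% of all genes tested passed. DESeq2 and limma-voom also gave 0 of the 43, where DESeq2 called 2 and limma-voom 0 of all genes, and the smallest adjusted p in DESeq2 was 0.833 (Cd36). At an unadjusted p under 0.05 there was 1 gene, Cd36, against 1.75% of all genes tested (225 of 12883), and the same gene was the only 1 of the 41 whose groups did not overlap, against 1.2% of all genes. The mean difference was positive for 21 genes and negative for 20. On the log2 scale the median difference over the 41 genes was 0.01, beside 0.00071 over all genes, and it was -0.0044 when libraries were scaled by total counts only. The median size of the difference, sign ignored, was 0.07 for the 41 genes and 0.07 for all genes.

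The intervals say how large a difference the 8 livers leave room for. The 41 differences ran from -0.30 (Cd36) to 0.26 (Lpin1) on the log2 scale, and 35 of them were smaller than their own standard error. For 40 of the 41 genes the 95% interval included 0. All 41 intervals lay within 1 log2 unit of 0, that is, within a doubling in either direction, and the widest reached down to -0.71 (Scd1) and up to 0.92 (Elovl3).

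**Figure D1:**
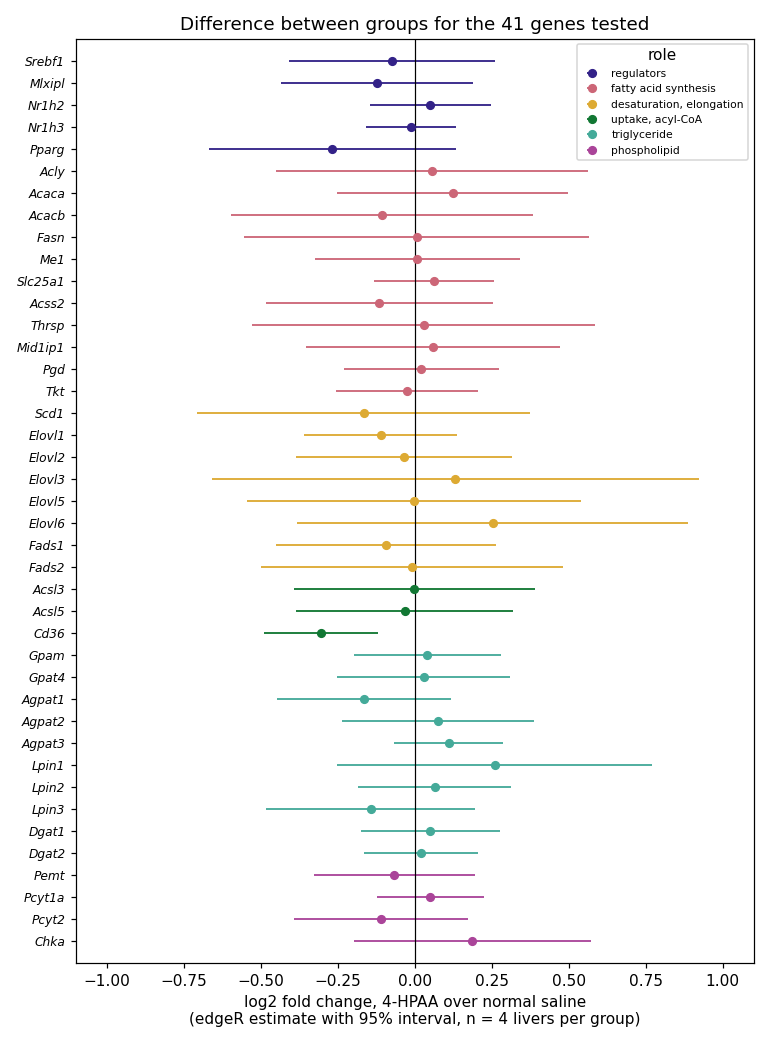
The log2 fold change of 4-HPAA over normal saline (x axis) is drawn for each of the 41 genes tested (y axis, ordered and coloured by role), with points for edgeR's estimate and bars for its 95% interval (n = 4 livers per group). The bar of Cd36 alone leaves out 0, and the longest bars belong to Elovl3 and Elovl6, whose estimates are 0.13 and 0.25.

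Levels were compared between genes per transcript length, as TPM (counts per transcript length, scaled to a fixed total) with the mean and SD over all 8 livers. Scd1, the stearoyl-CoA desaturase that makes oleate, was the most abundant at 2189 ± 586 TPM. Thrsp, a lipogenic protein of the thyroid hormone response, came next at 597 ± 175 TPM, and Fads2, the first desaturase of polyunsaturated fatty acid synthesis, followed at 558 ± 132 TPM. Next in order were the phospholipid and triglyceride enzymes Pcyt2 at 438 ± 49.3, Dgat2 at 382 ± 21.0 and Pemt at 327 ± 34.2 TPM. Some isoenzymes lay far apart in level. Dgat1, the other diacylglycerol acyltransferase, stood at 21.8 ± 2.55 TPM. Among the lipins, phosphatidate phosphatases that make diacylglycerol, Lpin2 stood at 243 ± 18.1, Lpin1 at 157 ± 35.7 and Lpin3 at 3.23 ± 0.477 TPM. Among the acylglycerolphosphate acyltransferases, Agpat2 (131 ± 19.4 TPM) and Agpat3 (127 ± 10.7 TPM) lay within their spread of each other and Agpat1 lay far below (10.5 ± 1.29 TPM). Pparg, the nuclear receptor of fat storage, was low at 5.34 ± 1.18 TPM.

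**Figure D2:**
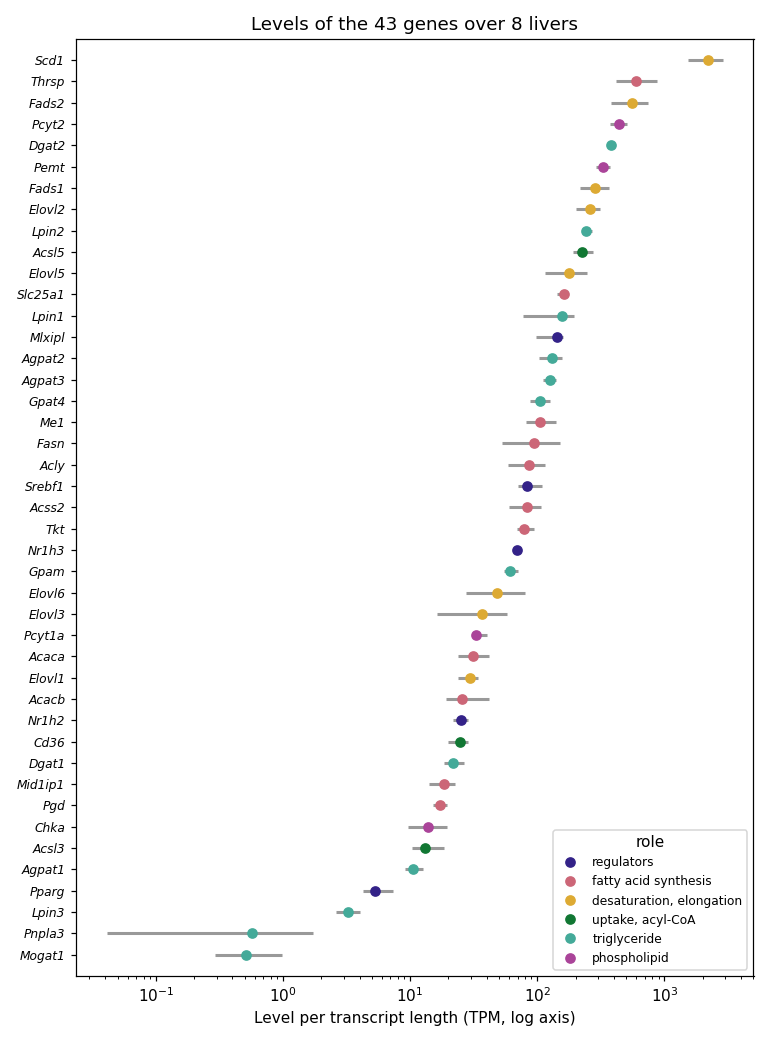
Levels per transcript length (x axis, TPM, log axis) of the 43 genes (y axis, ordered by level), with points for the mean over the 8 livers, grey bars from the lowest to the highest liver, and colours for the role. Scd1 stands alone at the top with a mean of 2189 TPM, and Pnpla3 and Mogat1 lie under 1 TPM.

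None of the 5 regulators passed the test, and for each the groups overlapped. Srebf1, at chr11:60199089-60222581 (GRCm38, minus strand), stood at 129, 168, 116 and 196 CPM in the normal saline livers 1 to 4 and at 155, 142, 139.9 and 141 CPM in the 4-HPAA livers 1 to 4. The lowest and the highest of the 8 values were both in normal saline livers, 3 and 4, and the 4-HPAA values all fell between them. The difference was -0.07 (SE 0.15, 95% interval -0.41 to 0.26) on the log2 scale. Mlxipl, at chr5:135089890-135138382 (plus strand), stood at 233, 276, 248 and 224 CPM with normal saline and 275, 239, 218 and 169.8 CPM with 4-HPAA, a log2 difference of -0.12 (SE 0.14, 95% interval -0.43 to 0.19). The groups overlapped, with 4-HPAA liver 4 lowest of all 8.

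Nr1h3 encodes LXR alpha, the oxysterol receptor that switches on Srebf1. Its values were 75.3, 73.9, 72.3 and 76.5 CPM with normal saline and 75.3, 71.7, 69.8 and 78.7 CPM with 4-HPAA. It was the steadiest of the 41 genes, with a highest-to-lowest ratio of 1.13 over the 8 livers and a difference of -0.01 (SE 0.066) on the log2 scale. Pparg stood at 5.03, 8.64, 8.27 and 5.70 CPM and 6.21, 5.94, 5.34 and 5.46 CPM in the same order. For Pparg, normal saline livers 2 and 3 lay above all the others, while normal saline liver 1 was the lowest of the 8, and the log2 difference was -0.27 (SE 0.18, 95% interval -0.67 to 0.13). Nr1h2, which encodes LXR beta, ranged from 22.3 to 28.4 CPM. In all, 4 of the 5 regulators had a negative difference and 1 a positive one.

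The counts of the regulators were divided by annotated start, with transcripts that begin within 200 bases of each other summed into a start region. These shares rest on how kallisto, which assigned the reads, divides reads between overlapping transcripts. No transcript start was measured. Of the Srebf1 counts, 49.7% ± 2.48 (SD, n = 4) with normal saline and 50.4% ± 4.14 with 4-HPAA went to the transcript that begins at position 60220604 of chromosome 11. Starts further downstream took 22.4% ± 3.73 and 25.3% ± 4.79 (60210392 to 60210465) and 19.998% ± 6.98 and 18.7% ± 8.40 (60207188). The transcript that begins furthest upstream, at 60222581, took 0.429% ± 0.150 and 0.363% ± 0.204. Which of these starts belongs to SREBP-1c was not determined, so no share is given for that form. For Mlxipl, 95.1% ± 0.466 and 94.9% ± 0.459 went to the region from 135106891 to 135106918 of chromosome 5, and 0.332% ± 0.199 and 0.513% ± 0.151 to the upstream start at 135089890. Neither gene had a start region whose groups did not overlap, and the upstream Mlxipl transcript rested on 7.8 to 45 estimated counts per library.

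Promoter windows from RefSeq (GRCm38.p6, 250 bases before and 50 bases after each annotated start) were found for 36 of the 43 genes, 54 windows in all, and not for Dgat1, Dgat2, Elovl3, Fads1, Gpat4, Pcyt2 and Scd1. They were searched on both strands for a sterol regulatory element, whose letters were TCACNCCAC, an E-box, a CCAAT box of those 5 letters, a GC box and the DR1 direct repeat of PPAR sites. The sterol regulatory element letters were in 3 of the 54 windows (5.56%), those of Mlxipl and Pcyt1a, against 1.24% of all 32851 windows. The Pcyt1a windows with these letters overlap and hold the same site, which the 5.56% counts more than once. The E-box letters CACGTG were in 5 of the 54 windows (9.26%), of Elovl5, Lpin2, Lpin3, Mlxipl and Slc25a1, against 7.15% of all windows. The CCAAT box was in 25 of the 54 windows (46.3%), against 37.4% of all windows. The GC box, searched as GGGCGG, was in 29 of the 54 windows (53.7%), against 35.7%, and the direct repeat was in none, against 0.0396%. These are matches of letters in windows of 300 bases and show nothing about binding. The windows of both starts of Mlxipl, of the Srebf1 start with the largest share (main start below) and of a Fasn start are shown. Each was chosen because estimated counts were assigned to a transcript that begins there. The Thrsp window is shown as that of the most abundant gene of synthesis with a window, and the Pcyt1a window for its sterol regulatory element. They read 5′ to 3′ on the strand of the gene, and capitals mark any of the motifs.
Mlxipl main start, chr5:135106641-135106940: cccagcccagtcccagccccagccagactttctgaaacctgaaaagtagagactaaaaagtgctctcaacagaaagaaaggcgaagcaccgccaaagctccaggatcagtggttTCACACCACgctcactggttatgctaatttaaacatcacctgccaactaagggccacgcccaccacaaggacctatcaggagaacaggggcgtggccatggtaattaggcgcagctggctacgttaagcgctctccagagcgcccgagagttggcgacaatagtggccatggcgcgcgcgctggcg
Mlxipl upstream start, chr5:135089640-135089939: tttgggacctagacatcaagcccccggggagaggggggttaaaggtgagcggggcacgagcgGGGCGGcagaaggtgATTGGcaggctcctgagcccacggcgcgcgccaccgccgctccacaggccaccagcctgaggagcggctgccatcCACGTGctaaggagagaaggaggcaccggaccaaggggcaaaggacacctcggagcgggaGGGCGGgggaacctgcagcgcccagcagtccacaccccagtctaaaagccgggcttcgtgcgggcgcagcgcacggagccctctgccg
Srebf1 main start, chr11:60220578-60220877: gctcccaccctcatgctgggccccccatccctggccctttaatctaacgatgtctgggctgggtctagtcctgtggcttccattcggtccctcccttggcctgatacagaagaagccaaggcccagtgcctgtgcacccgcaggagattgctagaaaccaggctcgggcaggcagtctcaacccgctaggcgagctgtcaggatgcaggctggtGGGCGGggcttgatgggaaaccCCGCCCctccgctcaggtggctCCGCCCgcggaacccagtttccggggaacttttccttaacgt
Fasn, chr11:120824498-120824797: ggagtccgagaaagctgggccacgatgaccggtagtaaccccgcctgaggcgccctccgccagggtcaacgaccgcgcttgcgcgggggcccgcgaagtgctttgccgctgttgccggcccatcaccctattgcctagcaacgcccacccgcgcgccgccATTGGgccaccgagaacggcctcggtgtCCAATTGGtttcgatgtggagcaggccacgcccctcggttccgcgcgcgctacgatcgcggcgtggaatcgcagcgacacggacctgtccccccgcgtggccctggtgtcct
Thrsp, chr7:97417501-97417800: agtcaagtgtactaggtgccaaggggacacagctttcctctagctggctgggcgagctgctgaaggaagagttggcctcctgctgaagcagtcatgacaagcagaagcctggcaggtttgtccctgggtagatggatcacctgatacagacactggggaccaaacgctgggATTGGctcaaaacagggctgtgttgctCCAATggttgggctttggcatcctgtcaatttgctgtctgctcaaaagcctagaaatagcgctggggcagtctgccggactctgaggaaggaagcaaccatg
Pcyt1a, chr16:32430671-32430970: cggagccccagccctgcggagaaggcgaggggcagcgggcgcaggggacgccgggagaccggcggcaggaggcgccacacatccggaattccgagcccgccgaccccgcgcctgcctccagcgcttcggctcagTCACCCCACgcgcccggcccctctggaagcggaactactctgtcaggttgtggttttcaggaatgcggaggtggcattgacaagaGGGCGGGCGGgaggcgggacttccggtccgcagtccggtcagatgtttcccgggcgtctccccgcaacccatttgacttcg

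In the main Mlxipl window the sterol regulatory element begins 136 bases before the start, and no E-box is present. In the upstream Mlxipl window the E-box begins 98 bases before the start. The start assigned 95.1% of Mlxipl counts with normal saline is thus the one whose window holds the sterol regulatory element letters. In the Pcyt1a window these letters begin 116 bases before the start, and an overlapping second Pcyt1a window holds the same site. The Fasn window holds 3 CCAAT matches that begin 90, 62 and 59 bases before the start, and the last 2 overlap on opposite strands. It belongs to the transcript that took 22.1% ± 2.07 of Fasn counts with normal saline and 22.6% ± 3.32 with 4-HPAA, while 70.1% ± 4.21 and 71.2% ± 5.18 went to a transcript that begins downstream, at position 120824095 of chromosome 11.

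The 11 genes of fatty acid synthesis showed a wide spread between mice and no difference between groups that passed the test. Of them 8 had a positive and 3 a negative difference, the median was 0.02 on the log2 scale, and all 11 differences were smaller than their standard errors. Acly, the ATP citrate lyase that makes cytosolic acetyl-CoA, stood at 253, 213, 156 and 244 CPM with normal saline and 189, 254, 147 and 310.1 CPM with 4-HPAA (log2 difference 0.06, SE 0.23). The lowest and the highest of the 8 values were both in 4-HPAA livers, 3 and 4. Acaca, the cytosolic acetyl-CoA carboxylase, stood at 159.6, 149.7, 112 and 148 CPM and 144, 184, 111 and 181 CPM (log2 difference 0.12, SE 0.17), and liver 3 was the lowest in both groups. Acacb, the carboxylase at the mitochondrial surface that restrains fatty acid oxidation, stood at 189, 122, 85.1 and 94.8 CPM and 98.6, 119.9, 119.8 and 117 CPM (log2 difference -0.11, SE 0.22). All 4 of its 4-HPAA values lay inside the range of the normal saline livers.

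Fasn, the fatty acid synthase at chr11:120805846-120824547 (minus strand), stood at 307, 339, 179 and 372 CPM with normal saline and 275, 259, 227 and 439.8 CPM with 4-HPAA. Normal saline liver 3 was the lowest and 4-HPAA liver 4 the highest, 2.45 times as high. The group means were 299 ± 84.2 and 300.3 ± 95.1 CPM (SD, n = 4), and the log2 difference of 0.01 (SE 0.25, 95% interval -0.55 to 0.57) became -0.0051 with scaling by total counts only. Me1, the malic enzyme that supplies NADPH, stood at 228, 192, 171 and 139 CPM and 162, 186, 171 and 215 CPM, with a log2 difference of 0.01 (SE 0.15) that became -0.0025 with that scaling. Its normal saline livers spanned the range of the 4-HPAA livers. Acss2, which makes acetyl-CoA from acetate, stood at 178, 163, 123 and 131 CPM and 143, 175, 126 and 107 CPM (log2 difference -0.11, SE 0.16), with overlapping groups. Thrsp stood at 637, 474, 328 and 423 CPM and 400.1, 340.0, 449 and 709.7 CPM (log2 difference 0.03, SE 0.25, 95% interval -0.53 to 0.59). Normal saline liver 1 and 4-HPAA liver 4 lay far above the other 6.

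The other genes of this role also overlapped between the groups. Slc25a1, the mitochondrial citrate carrier, ranged from 129 to 168 CPM, and the pentose phosphate enzymes Pgd and Tkt, which serve NADPH supply, from 19.9 to 26.9 and from 90.96 to 121 CPM. Mid1ip1, a partner of Thrsp that activates acetyl-CoA carboxylase, ranged from 15.5 to 26.7 CPM.

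Desaturases and elongases varied most from mouse to mouse. Their median within-group SD was 0.39 on the log2 scale, against 0.29 for fatty acid synthesis, 0.23 for the regulators, 0.26 for uptake and activation, 0.17 for triglyceride synthesis, 0.19 for phospholipid synthesis, and 0.18 over all genes tested. Scd1 stood at 8128, 6898, 4504 and 7796 CPM with normal saline and 4771, 8244, 4383 and 6953 CPM with 4-HPAA. Its values fell into a low range of 4383 to 4771 CPM (normal saline liver 3, 4-HPAA livers 1 and 3) and a high range of 6898 to 8244 CPM (the other 5), with both groups present in each. The log2 difference was -0.17 (SE 0.24, 95% interval -0.71 to 0.37).

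Elovl6, which elongates palmitate to stearate, stood at 167, 155, 116 and 187 CPM with normal saline and 104, 202, 142 and 297 CPM with 4-HPAA. The lowest and the highest value were both in 4-HPAA livers, 1 and 4, and the log2 difference was 0.25 (SE 0.28, 95% interval -0.38 to 0.89). Without 4-HPAA liver 4 the log2 difference was -0.07. Elovl5, an elongase of polyunsaturated fatty acids, stood at 403, 264, 194 and 337 CPM and 226, 294, 256 and 421 CPM (log2 difference -0.0025, SE 0.24). Elovl3, an elongase of saturated and monounsaturated chains, stood at 33.1, 48.0, 52.6 and 17.8 CPM and 22.7, 34.9, 60.9 and 47.5 CPM (log2 difference 0.13, SE 0.35). It had the widest range of the 41 genes, 3.42 times from normal saline liver 4 to 4-HPAA liver 3, and both groups held low and high livers.

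Fads1 and Fads2, the delta-5 and delta-6 desaturases, shared their high and low livers. Fads1 stood at 729, 567, 444 and 669 CPM with normal saline and 515, 524, 533 and 687 CPM with 4-HPAA (log2 difference -0.09, SE 0.16). Fads2 stood at 1279, 949.6, 729 and 1348 CPM and 932, 983, 894 and 1474 CPM (log2 difference -0.01, SE 0.22). In both genes normal saline livers 1 and 4 and 4-HPAA liver 4 were the 3 highest and normal saline liver 3 the lowest. Elovl2, an elongase of long polyunsaturated chains, ranged from 469 to 742 CPM with the same liver lowest, and Elovl1, an elongase of very long chains, from 19.4 to 27.9 CPM. Of the 8 genes of this role, 2 had a positive and 6 a negative difference, and each of the 8 was smaller than its standard error.

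The spread was shared between genes. Among the 19 genes of synthesis, desaturation and elongation, normal saline liver 3 was the lowest of the 8 livers for 9 genes and above the gene's median for 1. 4-HPAA liver 4 was the highest for 8 and above the median for 17. Over all 12883 genes tested normal saline liver 3 was lowest in 11.4% and 4-HPAA liver 4 highest in 18.7%. They were above the gene's median in 6834 and 6105 of these genes. The deviation from the gene's own mean log2 CPM had a median over the 19 genes of -0.38 in normal saline liver 3 and 0.26 in 4-HPAA liver 4. Over all genes tested these medians were 0.016 and -0.013. Normal saline liver 1 stood at 0.23, and 4-HPAA livers 1 and 3 both stood at -0.16. Each group thus held livers on both sides. Leaving out normal saline liver 3 moved the median difference over the 41 genes from 0.01 to -0.09, and leaving out 4-HPAA liver 4 moved it to -0.07.

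**Figure D3:**
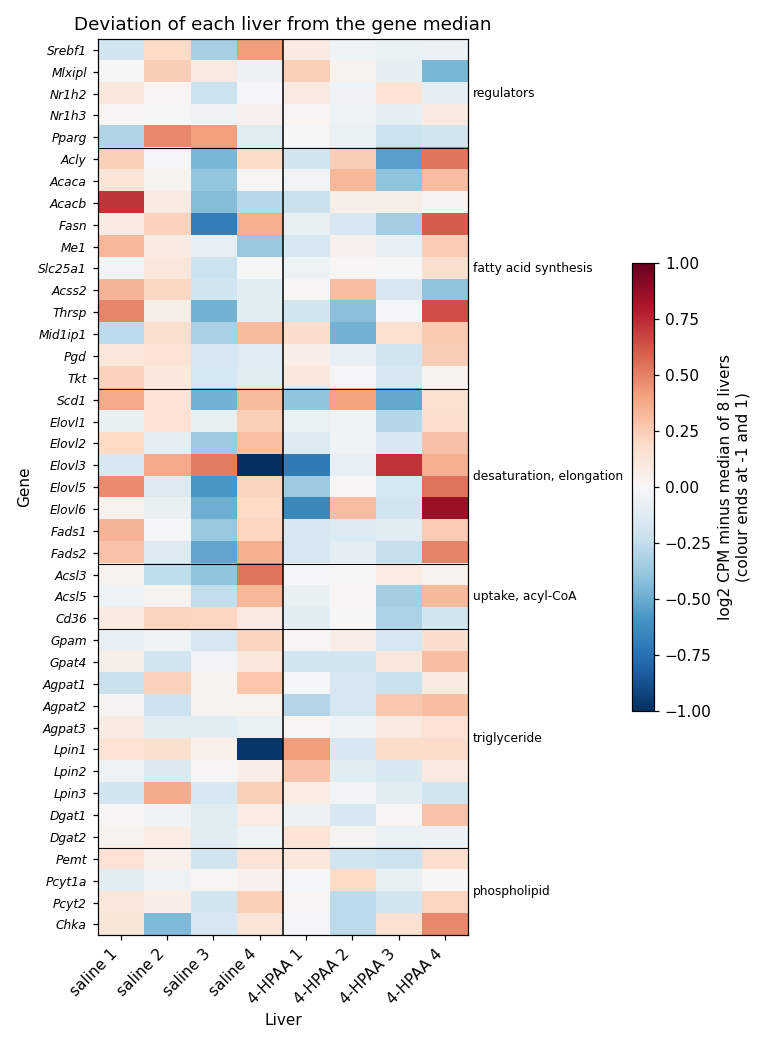
Each cell gives the log2 CPM of a liver (x axis, 4 normal saline then 4 4-HPAA livers) minus the mean log2 CPM of the 8 livers for that gene (y axis, 41 genes by role), in red where higher and blue where lower, with the colour ending at -1 and 1. The title and colour label name the median, but the mean was subtracted. The column of normal saline liver 3 is blue through synthesis, desaturation and elongation except at Elovl3. The column of 4-HPAA liver 4 is red there except at Acss2, and near 0 at Acacb and Tkt.

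Values that follow food intake and time of day are given beside this spread. The 12 genes of a fasting and feeding list summed to 9802 to 13334 CPM with normal saline and 10279 to 12717 CPM with 4-HPAA. The 12 clock genes summed to 620 to 662 CPM with normal saline and 559 to 763 CPM with 4-HPAA, and 0 of the 11 tested had an unadjusted edgeR p under 0.05. Their part in the spread of the lipogenic genes was not tested.

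Srebf1 encodes a regulator of several of these enzymes, so its level was set against 6 of them over the 8 livers. A small constant was added to each CPM before the log2 was taken. Pearson's r of log2 CPM with Fasn was 0.60 (Spearman's rho 0.57, exact permutation p = 0.111 for r and 0.151 for rho, adjusted over the 6 genes 0.665 and 0.798). It was 0.61 when the group means were removed, and 0.11 without normal saline livers 3 and 4, which lie farthest from the Srebf1 median. Leaving out these 2 livers narrows the Srebf1 range, which by itself can lower r. The lower value therefore cannot show whether the relation holds beyond them. Leaving out 4-HPAA liver 4 gave an r of 0.82 (exact permutation p = 0.0248, adjusted 0.149), and leaving out normal saline liver 3 gave 0.34. For Acly, Acaca, Scd1, Elovl6 and Pnpla3, r was 0.27, 0.25, 0.35, 0.16 and 0.06 and rho 0.19, 0.19, 0.26, 0.19 and -0.05. Pnpla3 had only 1 to 31 counts per library, too few to test, so its r and rho largely carry counting error. Exact permutation p for these 5 genes ranged from 0.396 to 0.903 for r and from 0.536 to 0.935 for rho, 0.843 to 0.903 and 0.798 to 0.935 when adjusted. Without the 2 livers, r for the 5 genes lay between -0.58 and -0.10. No relation passed the test.

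**Figure D4:**
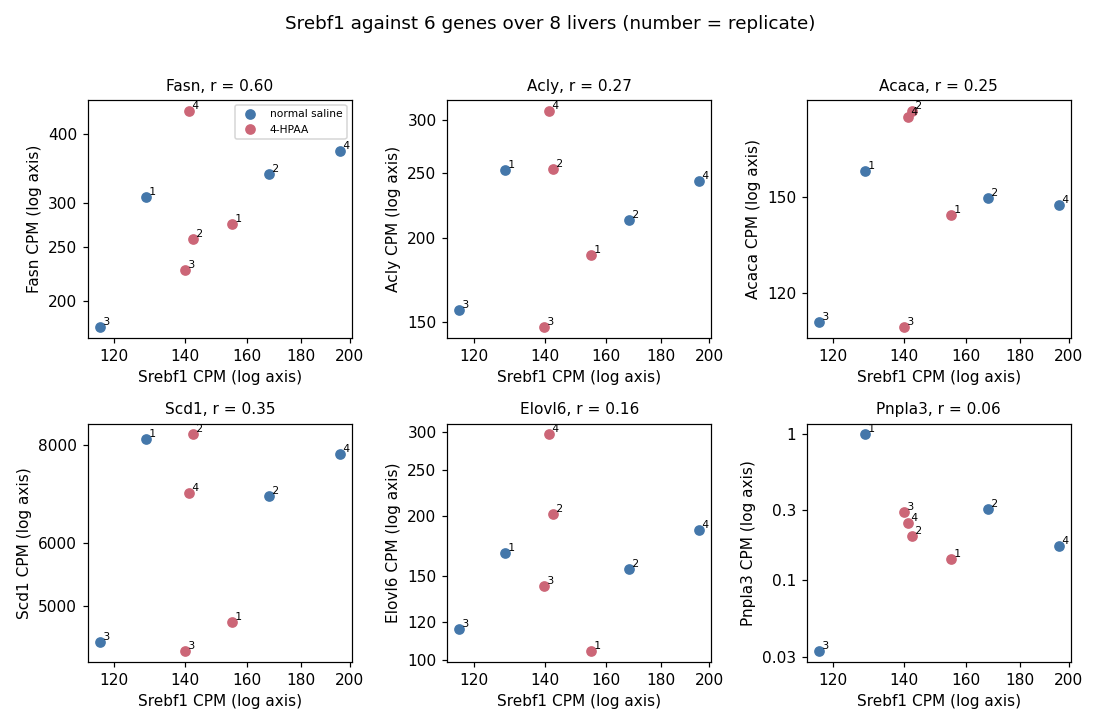
Srebf1 (x axis, CPM, log axis) against Fasn, Acly, Acaca, Scd1, Elovl6 and Pnpla3 (y axes, CPM, log axes) in the 4 normal saline livers (blue) and the 4 4-HPAA livers (red), with numbers for the replicate and Pearson's r over all 8 in the title of each plot. The 4-HPAA livers share a narrow Srebf1 range of 140 to 155 CPM while Fasn spans 227 to 440 CPM in them. The Pnpla3 points rest on 1 to 31 counts each.

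Cd36 was the gene of this set that differed most between the groups. It encodes a scavenger receptor that takes up long-chain fatty acids and lies at chr5:17781690-17888801 (minus strand). Its values were 43.8, 47.6, 47.3 and 43.2 CPM in the normal saline livers and 37.7, 40.98, 32.8 and 35.8 CPM in the 4-HPAA livers. Every 4-HPAA liver lay below every normal saline liver, with 2.27 CPM between the lowest of one group and the highest of the other. The group means were 45.5 ± 2.27 and 36.8 ± 3.41 CPM (SD, n = 4). The log2 difference was -0.30 (SE 0.083, 95% interval -0.49 to -0.12), with an unadjusted p of 0.0043 and an adjusted p of 1.00 in edgeR's quasi-likelihood test. Genes that were lower with 4-HPAA at an unadjusted p under 0.05 made up 0.994% of all genes tested, and genes lower without overlap 0.652%. Across 16 other settings the log2 difference ran from -0.36 to -0.25, with an unadjusted p under 0.05 in 16 and an adjusted p from 0.833 to 1.00.

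The within-group SD of Cd36 was small, larger than in only 18.7% of the genes tested. Cd36 is also expressed in macrophages, endothelium and fat. The 6 macrophage markers summed to 49.8 to 154 CPM with normal saline and 44.3 to 121 CPM with 4-HPAA, and the 6 endothelial markers to 97.4 to 142 and 96.4 to 164 CPM. None of these 12 markers had groups that did not overlap, and their part in the Cd36 difference was not tested. Of the 6 adipocyte markers, Lep was at 0 in all 8 livers and Adipoq had at most 2 counts, and the summed level, nearly all Fabp4, was 4.99 to 8.37 CPM with normal saline and 4.80 to 8.39 CPM with 4-HPAA.

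The other genes of uptake and activation overlapped between the groups. Acsl5, an acyl-CoA synthetase that activates fatty acids, stood at 341, 363, 298 and 446 CPM with normal saline and 336, 356, 280.1 and 444 CPM with 4-HPAA (log2 difference -0.03, SE 0.16), and liver 4 was the highest in both groups. Acsl3, the synthetase at the lipid droplet, ranged from 16.9 to 32.2 CPM with normal saline and from 22.1 to 23.4 CPM with 4-HPAA.

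Genes of triglyceride synthesis had a median within-group SD close to that of all genes, and none of the 10 tested passed the test. Of the 10, 8 had a positive and 2 a negative difference, with a median of 0.05 on the log2 scale. Gpam, the mitochondrial glycerol-3-phosphate acyltransferase that begins the route, stood at 185, 189, 174 and 228 CPM with normal saline and 198, 205, 174 and 221 CPM with 4-HPAA (log2 difference 0.04, SE 0.11). Agpat1, which adds the next acyl chain, stood at 8.59, 11.7, 10.2 and 12.1 CPM and 9.88, 8.94, 8.57 and 10.7 CPM (log2 difference -0.17, SE 0.13), with overlapping groups in both genes.

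Lpin1 showed the largest positive difference of the set, and it turned on a single liver. It stood at 505, 515, 476 and 234 CPM with normal saline and 614, 415, 521 and 522 CPM with 4-HPAA (log2 difference 0.26, SE 0.23, 95% interval -0.25 to 0.77). Normal saline liver 4 was lowest by a wide margin, and the other 3 normal saline livers lay inside the range of the 4-HPAA livers. Without normal saline liver 4 the log2 difference was 0.05. Lpin2 stood at 528, 494, 551 and 572 CPM and 667, 502, 491 and 585 CPM (log2 difference 0.07, SE 0.11), with no low value in that liver.

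Dgat2, the acyltransferase that completes triglyceride from newly made fatty acids, stood at 530.0, 547, 481 and 503 CPM with normal saline and 569, 527, 495 and 498 CPM with 4-HPAA. Its highest-to-lowest ratio was 1.18 and its log2 difference 0.02 (SE 0.083, 95% interval -0.17 to 0.21), among the tightest intervals of the set. Gpat4, the acyltransferase of the endoplasmic reticulum, ranged from 219 to 311 CPM, Agpat2 from 91.1 to 138 CPM, Agpat3 from 196 to 237 CPM, Lpin3 from 4.41 to 6.52 CPM and Dgat1 from 17.7 to 24.1 CPM. Mogat1, a monoacylglycerol acyltransferase, and Pnpla3, a lipid droplet protein with lipase activity, were too low to test. Mogat1 had 3, 10, 19 and 4 counts with normal saline and 7, 12, 7 and 3 with 4-HPAA. Pnpla3 had 31, 9, 1 and 5 counts with normal saline and 4, 6, 9 and 7 with 4-HPAA, the 31 counts being in normal saline liver 1, and a difference between groups was not detectable at this depth.

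Phospholipid synthesis genes gave 2 positive and 2 negative differences of 4. Pemt, which methylates phosphatidylethanolamine to phosphatidylcholine, stood at 218, 204, 172 and 217 CPM with normal saline and 212, 172, 170.1 and 222 CPM with 4-HPAA (log2 difference -0.07, SE 0.12). Pcyt2, the cytidylyl transferase of the ethanolamine branch, stood at 415, 402, 337 and 454 CPM and 387, 320.1, 339 and 445 CPM (log2 difference -0.11, SE 0.13). In both genes livers 1 and 4 of each group were higher than liver 3. Chka, the choline kinase, stood at 18.0, 12.2, 14.7 and 18.1 CPM and 16.4, 13.8, 18.4 and 23.1 CPM (log2 difference 0.19, SE 0.17, 95% interval -0.20 to 0.57), with its lowest value in normal saline liver 2 and its highest in 4-HPAA liver 4. Pcyt1a, the cytidylyl transferase of the choline branch, ranged from 84.0 to 103.5 CPM with a log2 difference of 0.05 (SE 0.078).

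**Figure D5:**
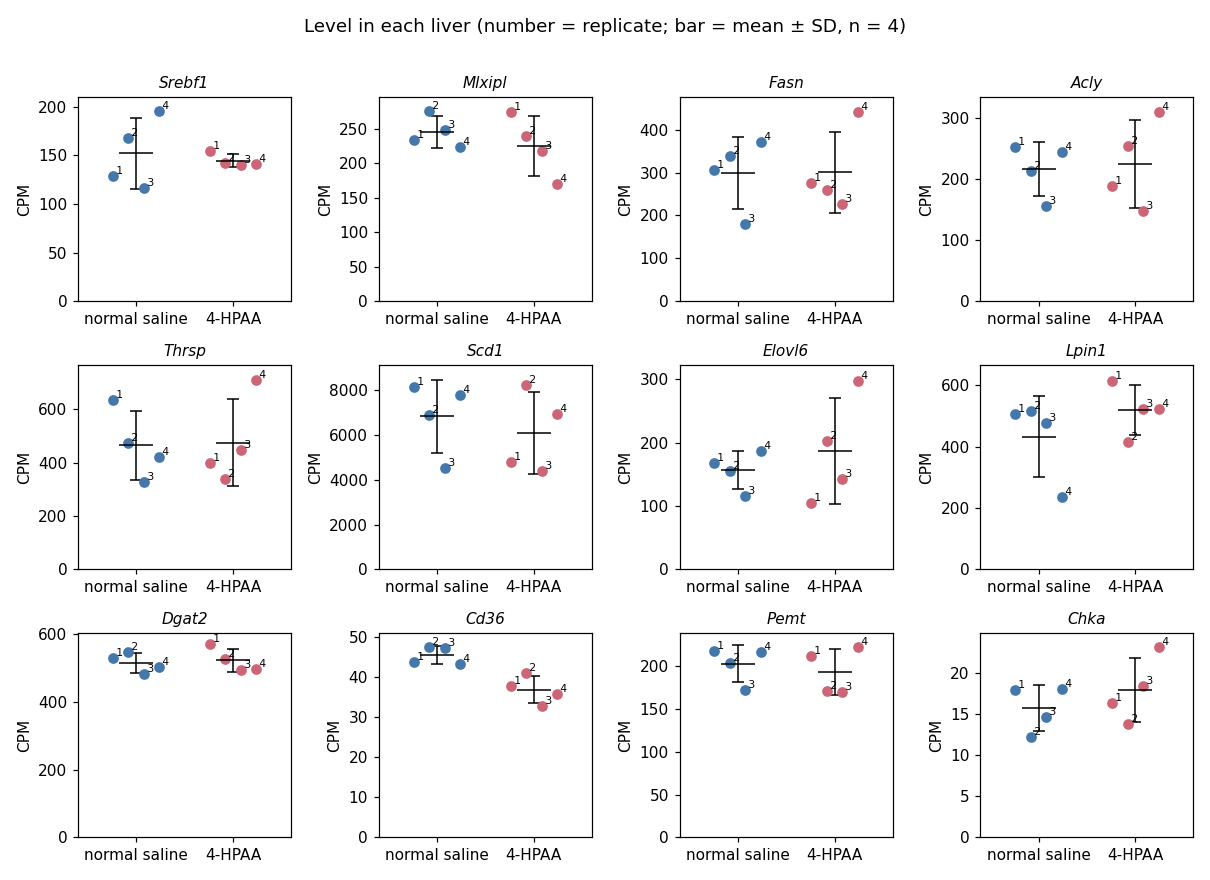
Level (y axes, CPM, from 0) of 12 genes in the 4 normal saline livers (blue) and the 4 4-HPAA livers (red), with the replicate number beside each point and bars for the mean ± SD (n = 4). Cd36 is the plot in which the groups do not overlap, Dgat2 varies least, and the low point of Lpin1 is normal saline liver 4.

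Gene sums can hide a change between transcripts, so the transcripts were tested as well. The table holds 308 transcripts of the 43 genes, of which 149 had at least 10 counts in every library. None passed an adjusted p of 0.05 in edgeR, as in 0.0% of all 25977 transcripts tested, and 6 had an unadjusted p under 0.05, against 3.85% of all transcripts. The smallest p belonged to Cd36-203, which begins at position 17888747 of chromosome 5 and made up 42.3% of the Cd36 counts. It had 588, 648, 578 and 573 estimated counts, not scaled to library size, with normal saline. With 4-HPAA it had 402, 497, 453 and 405 (log2 difference -0.41, SE 0.11, edgeR unadjusted p = 0.0032, adjusted p = 1.00). The start region of Cd36-203 took 43.8% ± 2.93 of the gene's counts with normal saline and 40.5% ± 3.03 with 4-HPAA, and the other start regions of Cd36 took 34.1% ± 1.37 and 22.03% ± 1.87 with normal saline and 32.2% ± 7.99 and 27.2% ± 7.08 with 4-HPAA. No start region of Cd36 had shares that did not overlap.

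Acacb-201, which made up 16.8% of Acacb counts, had 922, 941, 726 and 466 estimated counts with normal saline and 376, 246, 581 and 502 with 4-HPAA (log2 difference -0.81, SE 0.28, edgeR unadjusted p = 0.0167, adjusted p = 1.00). Normal saline liver 4 lay inside the range of the 4-HPAA livers. Lpin2-206, a retained-intron transcript with 1.52% of Lpin2 counts, had 287, 255, 308 and 272 estimated counts with normal saline. With 4-HPAA it had 248, 218, 209 and 189 (log2 difference -0.34, SE 0.13, edgeR unadjusted p = 0.0284, adjusted p = 1.00). Among the other genes with several starts, Pparg divided its counts between a start at 115360951 of chromosome 6 (49.1% ± 16.1 with normal saline, 59.5% ± 11.1 with 4-HPAA) and one at 115422066 (48.8% ± 13.8 and 40.1% ± 10.7). For Lpin1 the region from 16589720 to 16589773 of chromosome 12 took 68.5% ± 4.82 and 69.6% ± 7.38 of the counts. In neither gene did the shares separate the groups.

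A further 78 genes of the same routes were listed by role, and 69 of them were tested. None passed the adjusted test in edgeR, 43 had a positive and 26 a negative difference, and the median was 0.03 on the log2 scale. At an unadjusted edgeR p under 0.05 there was 1 of the 69, against 1.75% of all genes tested. The count was 2 without normal saline liver 3, 4-HPAA liver 1, 4-HPAA liver 3 or 4-HPAA liver 4. The genes counted changed with the liver left out. Only Fads3 was counted without normal saline liver 1, and only Scd2 without normal saline liver 2. Only Lpcat1 was counted without normal saline liver 4 or 4-HPAA liver 2, and Hacd1 and Pgls without 4-HPAA liver 1. The gene of the fit with all livers was not counted in these cases. Mboat7, an acyltransferase of phosphatidylinositol, was the 1 gene of the 69 whose groups did not overlap, against 1.2% of all genes, at 30.6, 30.2, 27.4 and 29.8 CPM and 32.1, 32.6, 31.6 and 32.4 CPM (log2 difference 0.12, SE 0.065), and it was chosen after its values were seen.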

How the data were processed

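RNA from 8 livers was made into libraries with a directional mRNA kit, and pairs of 100 base reads were checked with FastQC 0.11.9. Per the study's methods, the authors joined flow cells and assigned reads to GRCm38.p6 transcripts with kallisto in Galaxy. The deposited values are estimated counts per transcript, which divide reads shared between transcripts, and each library held 29559978 to 30673398 of them. The 4 mice per group and the depth both limit precision.

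Of 119414 transcripts, 116728 were matched to a GENCODE gene and summed per gene (0.703 to 1.06% of counts did not match), and the sums were rounded. A gene entered the test where each library gave it 10 counts or more. The test was that of edgeR 4.0.16 (R 4.3.3, TMM scaling, quasi-likelihood, no covariates), adjusted by the Benjamini-Hochberg method over all 12883 genes. CPM are TMM-scaled. TPM are counts per transcript length scaled to a common total. The steps were tested on simulated data. Groups and replicate numbers come from the labels. Alternatives were other scalings, DESeq2 1.42.0, limma 3.58.1 with voom, other filters, replicate number as a block and leaving out livers.

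The genes and lists were chosen with earlier results of these data known. Values per mouse were given for 27 genes listed by name, for those with an unadjusted p under 0.05 or groups that do not overlap, and for the 2 with the largest difference in each role (29 genes in all). From the other pathway genes, those with an unadjusted p under 0.05 were named, and the 3 transcripts with the smallest p. A single gene that this rule selects is not reported here.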

Additional observations from a re-analysis of the deposited data

Results flagged for a closer look

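In 86 groups of 4 livers (43 genes, both infusions), 6 held a liver set far from the other 3 by Dixon's gap test at the 95% level, where chance gives about 1 in 20 groups, or 4.3. Among normal saline livers, Lpin1 was low in the fourth (234 CPM, against 476 to 515 in the others) and Agpat2 was low in the second (96.9 CPM, against 113.7 to 114.5 in the others). Among 4-HPAA livers, the fourth was high in Fads1 (687 CPM, against 515 to 533) and in Fads2 (1474 CPM, against 894 to 983). The first 4-HPAA liver was high in Srebf1 (155 CPM, against 140 to 142) and low in Acacb (98.6 CPM, against 117 to 120).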

How the results depend on the processing

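No gene of the 43 passed an adjusted p of 0.05 under any alternative, single transcripts included. With 4 livers per group, the widest interval allowed a difference of 0.92 on the log2 scale. The unadjusted count for the 43 genes and the count without overlap each ran from 1 to 2 when livers were left out in turn: Pparg joined Cd36 without normal saline liver 1, and Agpat3 (without normal saline liver 1) or Lpin1 (without 4-HPAA liver 2) joined Cd36 without overlap. The count of other pathway genes at an unadjusted p under 0.05 was 1, and 2 with total counts only, with DESeq2 and with no filter, 1 to 2 with livers left out, and 0 without the 2 livers richest in haemoglobin, an alternative chosen after seeing the data. The cause was not tested.

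Whether the replicate numbers pair the livers cannot be told, since the labels do not say what the numbers mark. The correlations of same-numbered livers were 0.0398, 0.168, 0.268 and 0.481, all positive. Those of differently numbered livers ran from -0.48 to 0.47, and not every liver correlated best with its own number. When replicate block terms were added to the fit, 0 of the 43 genes passed the adjusted and 1 the unadjusted test, 3 other pathway genes had an unadjusted p under 0.05, the median difference was 0.01, and Elovl5 (0.014) and Fads2 (0.0048) changed sign.

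Correlations with Srebf1 ran from -0.024 to 0.40 for Acly, -0.12 to 0.34 for Acaca, -0.11 to 0.35 for Elovl6 and -0.57 to 0.50 for Pnpla3 when livers were left out in turn, and were negative without normal saline liver 3. Log2 differences changed sign with livers left out in turn, that of Elovl6 (0.25 with all livers) included: Srebf1 (-0.18 to 0.071), Nr1h3 (-0.050 to 0.014), Acly (-0.15 to 0.21), Acacb (-0.25 to 0.18), Fasn (-0.24 to 0.13), Me1 (-0.10 to 0.13), Thrsp (-0.24 to 0.22), Elovl3 (-0.11 to 0.34), Elovl5 (-0.22 to 0.17), Elovl6 (-0.073 to 0.46), Fads1 (-0.21 to 0.012), Fads2 (-0.21 to 0.12), Acsl5 (-0.17 to 0.083), Gpam (-0.020 to 0.13), Lpin2 (-0.024 to 0.12) and Dgat2 (-0.020 to 0.048). Without the 2 livers richest in haemoglobin the sign changed for Mlxipl (0.045), Acly (-0.16), Fasn (-0.18), Me1 (-0.060), Acss2 (0.026), Thrsp (-0.23), Elovl6 (-0.080), Gpam (-0.035), Lpin2 (-0.00034) and Chka (-0.071). Total counts only changed the sign of Fasn (-0.0051) and Me1 (-0.0025). Elovl5 changed sign with limma-voom (0.0099), with a filter on summed counts (0.0034) and with no filter (0.0033), and Fads2 with limma-voom (0.0046).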

Other observations

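The shares of counts that went to transcripts annotated as retained introns varied between livers, and the genes given here were chosen after their values were seen. For Acacb they took 31.0%, 28.9%, 25.2% and 44.1% of the gene's counts in normal saline livers 1 to 4 and 29.5%, 12.3%, 25.3% and 45.6% in 4-HPAA livers 1 to 4. For Fasn they took 6.52%, 7.16%, 5.87% and 11.8% with normal saline and 6.28%, 2.87%, 5.56% and 9.77% with 4-HPAA. In Acacb and Fasn the fourth liver of each group was the highest of its group and the second 4-HPAA liver the lowest of all 8. For Slc25a1 the shares were 10.4%, 11.6%, 10.9% and 12.8% with normal saline and 11.6%, 6.21%, 2.44% and 3.65% with 4-HPAA, so that 4-HPAA livers 2 to 4 lay below all the others. For Lpin2 they were 8.11%, 9.32%, 9.60% and 8.98% with normal saline and 6.91%, 7.32%, 8.39% and 5.35% with 4-HPAA, and only 4-HPAA liver 3 lay above a normal saline liver. Over all transcripts the share ran from 1.502% (4-HPAA liver 2) to 2.58% (normal saline liver 3). Acly-207, a transcript that begins downstream of the main Acly start region, took 10.7% of Acly counts in the second 4-HPAA liver and 28.0 to 47.9% in the other 7. These shares rest on how kallisto divides reads between overlapping transcripts, and their part in the gene sums was not tested.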
